A study of Mus musculus with 12 samples.

Results

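The genes of the major histocompatibility complex (MHC) and of antigen presentation were followed in the m6A maps of mouse hippocampus. The members were the peaks whose gene name began with H2- and a capital letter, or was *B2m*, *Tap1*, *Tap2*, *Tapbp*, *Tapbpl*, *Ciita*, *Nlrc5*, *Cd74*, *Psmb8*, *Psmb9*, *Psmb10*, *Erap1*, *Calr*, *Canx*, *Pdia3* or *Cd1d1*. This rule used names alone and found 46 of 33622 peaks in the WT list and 48 of 34935 peaks in the *Tyrobp*-/- list. They belonged to 29 of the 17779 genes with a peak in either list. By name, 21 of the 29 had a peak in both lists, 4 in the WT list alone and 4 in the *Tyrobp*-/- list alone. Each list thus held 25 of the 29 member genes, where of all 17779 genes 15804 had a peak in WT and 16169 in *Tyrobp*-/- mice. This difference was not tested. RefSeq lists 50 symbols that begin with H2- and a capital letter, of which 17 had a peak. The same share over all RefSeq genes was not computed, so this count cannot be read as low or high. The samples were hippocampi of male mice of 6 months on a C57BL/6 background, either *Tyrobp*-/- animals carrying a TALEN-made deletion in the second exon or their WT littermates. *Tyrobp* encodes the adaptor TYROBP (DAP12), which transmits signals of microglial receptors such as TREM2, and the germline deletion of this 1 line is present in every cell. Each genotype had 3 samples, each pooled from 3 mice, and each sample gave a library immunoprecipitated with an m6A antibody (IP) and an input library. The 12 libraries held between 61189368 and 73554506 valid reads, and the depth behind a single peak is unknown.

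m6A is a methyl group on adenosine that the METTL3, METTL14 and WTAP complex places on mRNA, mostly near stop codons and in 3′ UTRs, where reader proteins use it to change the stability and translation of the transcript. Class I molecules show peptides of the cell's own proteins. Proteasomes cut the proteins, the TAP1 and TAP2 transporter carries the peptides into the endoplasmic reticulum, ERAP1 trims them, and tapasin (*Tapbp*), calreticulin, calnexin and ERp57 (*Pdia3*) help to load them on a heavy chain bound to beta-2 microglobulin. Class II molecules present proteins taken up from outside, with the help of the invariant chain (*Cd74*) and of H2-DM, and in the brain microglia and border macrophages are their best known source. CIITA drives transcription of class II genes and NLRC5 that of class I genes.

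For each peak the deposited lists give 1 fold enrichment, the ratio of IP over input that exomePeak computed over the 3 replicates of a genotype together, with the p-value and false discovery rate (FDR) of the call. A peak thus has no replicate error, and no difference between the genotypes was tested. Peaks of the lists were matched where their exonic blocks shared at least 1 base and each was the other's largest overlap. A matched peak was counted as higher or lower when the fold enrichments differed at least 2-fold. In pooled tissue, fewer cells of a type and less RNA per cell cannot be told apart. *Tyrobp* had 0 peaks in either list, so these files give no check of the targeted gene.

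Members were enriched to about the same degree as other peaks. The median fold enrichment of the member peaks was 5.86 in WT, with a range from 1.37 to 68.4, against a median of 5.54 over all WT peaks. In *Tyrobp*-/- mice it was 6.67, with a range from 1.41 to 20.3, against 5.72 over all peaks. Weak calls were more frequent among members, since 9 of the 46 WT peaks (19.6%) and 11 of the 48 *Tyrobp*-/- peaks (22.9%) had an FDR above 0.05, against 10.3% and 11% of all peaks. Members also recurred less between the lists. In WT, 60.9% of the member peaks shared exonic bases with a *Tyrobp*-/- peak, against 79.5% of all WT peaks, and in *Tyrobp*-/- mice the shares were 62.5% and 77.4%. Among peaks with an FDR of 1e-05 or lower, these shares were 73.9% of 23 member peaks against 88.7% of all peaks in WT, and 79.2% of 24 against 87.8% in *Tyrobp*-/- mice. Neither difference from all peaks was tested. Some rows described the same place, as 13 of the 46 WT rows and 11 of the 48 *Tyrobp*-/- rows shared bases with another member row, which left 39 and 42 separate regions.

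By the authors' annotation, 3′ UTRs held 22 of the 46 WT member peaks, a share of 47.8% (95% Clopper-Pearson interval 32.9 to 63.1, counting error only), against 47.2% of all WT peaks. In *Tyrobp*-/- mice 25 of 48 did so, 52.1% (37.2 to 66.7), against 49.3% of all peaks. The intervals treat the rows as independent, although some rows shared bases, and they were not used as a test. The 5′ UTR held 21.7% of the WT and 27.1% of the *Tyrobp*-/- member peaks, against 18.9% and 17.3% of all peaks. First exons held 5 of the WT member peaks (10.9%, where all WT peaks gave 11.5%) and 1 of the *Tyrobp*-/- member peaks (2.08%, where all peaks gave 11.6%), and other exons held 9 in each list, 19.6% and 18.8%, against 22.4% and 21.7%. These differences were not tested.

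**Figure D1:**
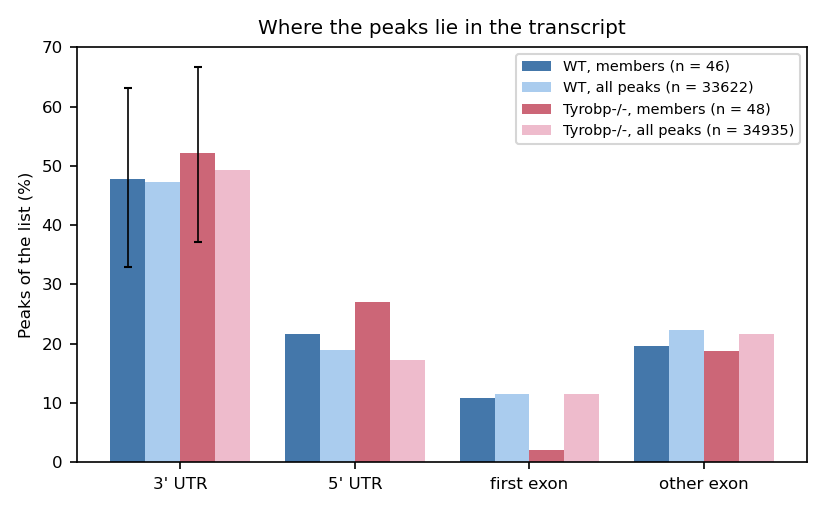
Share of peaks (%) in 4 annotation classes, for the members and for all peaks of the WT and *Tyrobp*-/- lists, with bars from 0. Error bars on the members' 3′ UTR bars are exact 95% binomial intervals that treat the rows as independent. The values of all peaks were 47.2% and 49.3%.

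Of the 26 matched pairs of member peaks, 2 were at least 2-fold higher in *Tyrobp*-/- mice and 2 were at least 2-fold lower. Over all 24102 matched peaks, 6.98% were higher and 6.02% lower by this rule, so that the members' counts were close to the background. The median log2 ratio of *Tyrobp*-/- over WT was -0.01 over the member pairs and 0.05 over all pairs, and 13 member pairs lay above 0 and 13 below. The pairs past 2-fold were peaks of *H2-K2* and *H2-T24* on the higher side and of *H2-M5* and *Tapbp* on the lower side. Among the 17 member pairs with an FDR of 1e-05 or lower in both genotypes, 0 were 2-fold higher and 1, in *Tapbp*, was 2-fold lower. Of all 17846 matched peaks at that FDR, 800 were higher and 605 lower by the same rule. Across the 26 pairs, which share libraries and in part bases, the log2 fold enrichments of both genotypes had a Pearson's r of 0.65 and a Spearman's rho of 0.62, against a Pearson's r of 0.78 over all pairs.

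**Figure D2:**
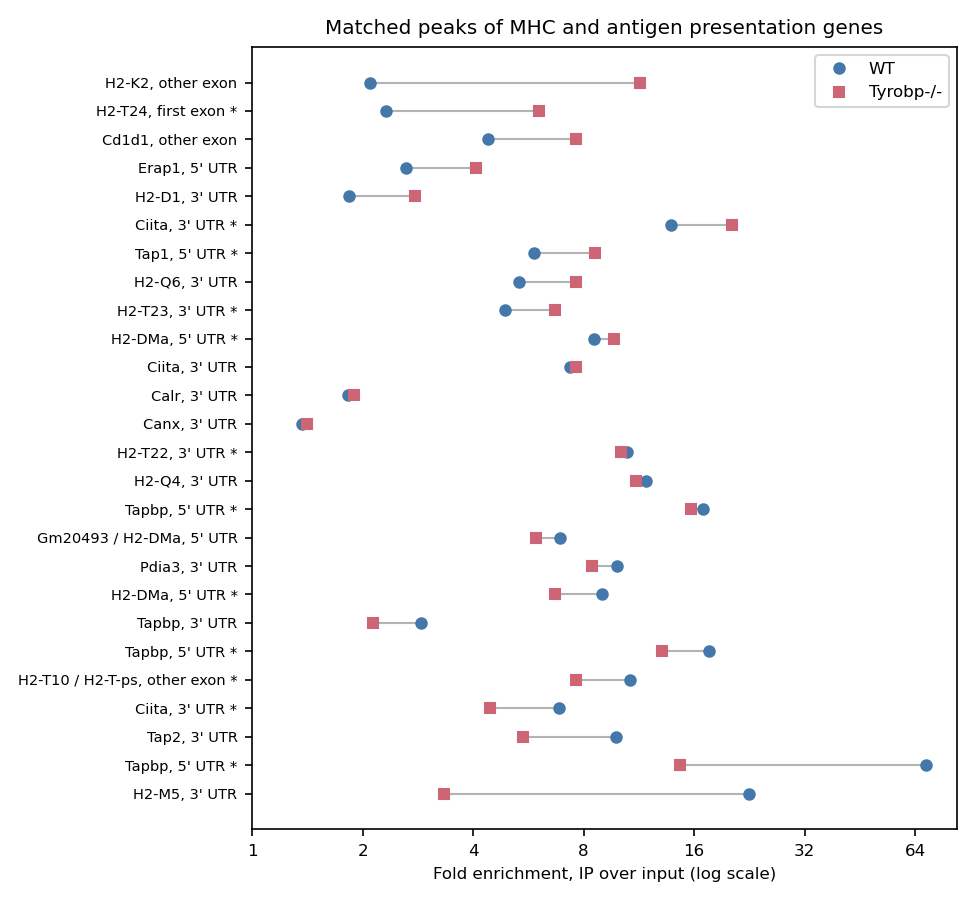
Fold enrichment of IP over input (log axis) of the 26 matched pairs of member peaks, WT as circles and *Tyrobp*-/- as squares, named with the annotation of the WT peak and ordered by their ratio. An asterisk marks pairs that overlap the RefSeq bounds of another gene, introns included. The pairs of *H2-K2* (2.09 and 11.4), *H2-T24*, *Tapbp* (68.4 and 14.6) and *H2-M5* (22.5 and 3.34) span more than 2-fold.

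**Figure D3:**
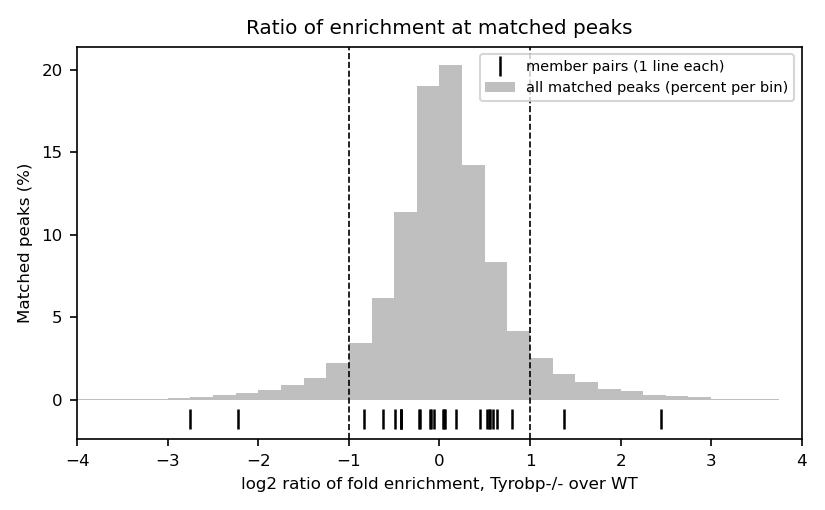
Distribution of the log2 ratio of fold enrichment, *Tyrobp*-/- over WT, as the percent of all 24102 matched peaks per bin (grey bars), with the 26 member pairs as lines below 0%. The dashed lines mark 2-fold, and 2 member pairs lie beyond each of them.

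Many of the strongest rows named for a member also overlapped the bounds of another gene. Bounds run from a gene's start to its end in RefSeq (GRCm38.p6), introns included. Whether a peak met exons of the other gene was not examined. Exonic blocks of 15 of the 46 WT and 17 of the 48 *Tyrobp*-/- member peaks shared at least 1 base with such bounds. These were 32.6% and 35.4%, against 21.2% and 20.9% of all peaks. Counts of bases in a gene, here and below, use the same bounds. In WT, the median fold enrichment was 10.5 for these 15 peaks and 4.64 for the other 31, against 6.35 and 5.37 for the same split of all WT peaks. In *Tyrobp*-/- mice the medians were 7.62 for the 17 peaks and 5.48 for the rest, against 6.35 and 5.53 over all peaks. Of the 11 member peaks with a log10 FDR of -100 or lower, 7 overlapped another gene in each genotype, against 19.5% of all WT and 19.2% of all *Tyrobp*-/- peaks at that FDR, and the remaining 4 were those of *Calr*, *Canx*, *H2-Q4* and *Pdia3*. Whether the authors' counting used strand is not given in the sources used here, so reads of overlapping genes cannot be told apart.

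**Figure D4:**
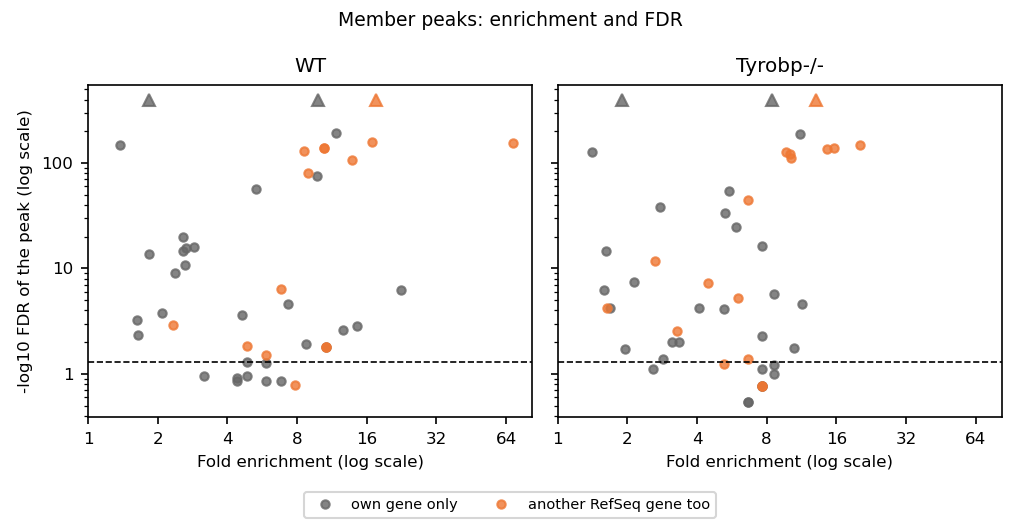
Fold enrichment (x, log axis) and -log10 FDR (y, log axis) of each member peak in WT and *Tyrobp*-/- mice. Orange marks peaks that also overlap the RefSeq bounds of another gene, introns included. The dashed line is an FDR of 0.05, and triangles are peaks whose FDR was listed as 0, drawn at the top edge. Of the 11 peaks of each list at a log10 FDR of -100 or lower, 7 are orange.

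Sequences at transcript starts are shown for the members whose first transcribed bases lay in one of their peaks, because such peaks can be set beside the letters of the m6A consensus. The starts used for *H2-M5*, *H2-DMa* and *Erap1* lay inside the RefSeq bounds of these genes, which begin further upstream. For *H2-M5* the start used was chr17:36989533, and the gene reaches to 36997955. Of the 29 member genes, 20 had a promoter window in RefSeq (GRCm38.p6), and in 7 of them a peak covered at least 10 of the first 50 transcribed bases. The consensus searched has 5 letters and opens with any base but C, which is followed by a purine, then by the letters AC, and last by any base but G. It was present within the covered bases in 5 of the 7 genes (*Canx* and *H2-DMa* had none). Over all 32851 windows it occurred in the same 50 bases in 54.4% on the transcribed strand and in 55.2% on the other strand, so a match is common and describes letters, not a methylated site. Each stretch below is 30 bases, 5′ to 3′, with the consensus in capitals.
*Tap1* (chr17:34187568-34187597, + strand, peak in *Tyrobp*-/- mice): attcatggagaaGAACAcgacaggccaggg
*H2-D1* (chr17:35263094-35263123, + strand, peak in WT): tcAGACAcccgggatcccagatgggggcga
*H2-M5* (chr17:36989504-36989533, - strand, peak in WT): agtccctctAGACCttctAAACAcggagga
*Erap1* (chr13:74639861-74639890, + strand, peak in both lists): tcccgggcggccAGACTggcggctgtgatg
*Tapbp* (chr17:33919498-33919527, + strand, peak in both lists): gaggagtggctggagagctacAGACAgggt
The *Tap1*, *H2-D1* and *H2-M5* stretches lay in peaks of 1 genotype, with fold enrichments of 8.58, 2.37 and 5.86, and those of *Erap1* and *Tapbp* in peaks of both. The *Tapbp* stretch also lies within the lncRNA gene *Gm19412*.

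Among the classical class I heavy chains, *H2-D1* had a matched 3′ UTR peak and *H2-K1* was seen in *Tyrobp*-/- mice alone. The *H2-D1* 3′ UTR peak (chr17:35267109-35267349, GRCm38) had a fold enrichment of 1.84 in WT and 2.77 in *Tyrobp*-/- mice, a ratio of 1.51. A second *H2-D1* peak in the 5′ UTR, with a fold enrichment of 2.37 and a log10 FDR of -9.02, was found in WT alone and covers the start sequence printed for this gene. *H2-K1* had 2 peaks in *Tyrobp*-/- mice, one of 1.61 in the 3′ UTR (log10 FDR -14.7) and one of 1.58 in another exon (log10 FDR -6.24), and 0 in WT. All of these classical class I peaks were weakly enriched, below the medians of the lists. The light chain gene *B2m* had 0 peaks in either list.

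The *H2-K2* pseudogene next to *H2-K1* gave the largest ratio among the members. Its fold enrichment was 2.09 in WT (chr17:33974836-33975502) and 11.4 in *Tyrobp*-/- mice (chr17:33974659-33974836), a ratio of 5.45. The peaks met in 1 shared base, so the values describe neighboring stretches rather than the same one.

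The nonclassical class I genes of the Q region held peaks of like enrichment in both lists beside peaks of 1 list. *H2-Q4* had a long 3′ UTR peak (chr17:35384067-35385290) with 11.8 in WT and 11.1 in *Tyrobp*-/- mice, at log10 FDRs of -193 and -190. Of its bases, 608 of 1224 in WT and 638 of 1254 in *Tyrobp*-/- mice lay in *H2-Q4*. The other bases lay beyond the RefSeq end of the gene. *H2-Q6*, of the Qa-2 family, had 1 WT peak of 5.33 in the 3′ UTR, which in *Tyrobp*-/- mice was covered by peaks of 5.26 and 7.62. *H2-Q7*, also Qa-2, had a peak of 14.6 in an exon in WT, and peaks of 3.13 in an exon and 10.5 in the 3′ UTR in *Tyrobp*-/- mice, of which 0 overlapped the WT peak. *H2-Q1* had 1 peak, in WT alone, of 6.84 and with an FDR above 0.05. Class I heavy chain genes are near copies of each other, and how the authors treated reads that fit several of them is not given, so the gene named for such a peak is uncertain.

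In the T region, *H2-T22*, whose product is bound by some gamma delta T cells, had a 3′ UTR peak of 10.5 in WT and 10.1 in *Tyrobp*-/- mice (chr17:36037128-36038775 in WT). A second WT row of 10.5 lay within it and shared 994 bases with it. *H2-T24*, another class I gene of this region, had 1 WT peak of 2.32 and 4 *Tyrobp*-/- peaks of 1.63, 3.28, 6.04 and 10.2. Its matched pair (chr17:36017429-36020500 in WT) went from 2.32 in WT to 6.04 in *Tyrobp*-/- mice, a ratio of 2.6. The row of 10.2 named for *H2-T24* shared 1003 bases with the *H2-T22* peak of the same list and lay outside the RefSeq bounds of *H2-T24*. *H2-T23*, which encodes Qa-1, a ligand of NKG2A receptors, had a pair annotated to its 3′ UTR, of 4.88 in WT and 6.67 in *Tyrobp*-/- mice. Of the WT peak 184 of 358 bases lay in *H2-T23*, but of the *Tyrobp*-/- peak only 5 of 179, so the value of 6.67 describes mostly bases outside the gene. A further *Tyrobp*-/- peak of 2.64 lay within *H2-T23*. All peaks of *H2-T22*, *H2-T23* and *H2-T24* overlapped the lncRNA gene *A930015D03Rik*.

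*H2-T10*, listed in RefSeq as a transcribed pseudogene, had 2 WT rows of 10.7 that shared 297 bases and 3 *Tyrobp*-/- rows of 7.62, 5.24 and 2.59 with FDRs above 0.05. *H2-T-ps* had 1 row, of 7.62 in *Tyrobp*-/- mice, which shared 383 bases with the *H2-T10* row of the same value and was matched to a WT row of *H2-T10*. Of its 445 bases, 23 lay in *H2-T-ps*, 422 in *H2-T10* and all in *BC023719*, another transcribed pseudogene. The *H2-T10* rows, except that of 2.59, overlapped *BC023719* too. *H2-Bl* had 1 peak, of 12.7 in WT (chr17:36083882-36084223, log10 FDR -2.6), and 0 in *Tyrobp*-/- mice. *H2-M5*, in the M region, had the lowest ratio among the members. Its 3′ UTR peak (chr17:36984808-36986889) had a fold enrichment of 22.5 in WT, at a log10 FDR of -6.2, and of 3.34 in *Tyrobp*-/- mice, at -1.99, a ratio of 0.148. *H2-M5* also had first-exon peaks of 8.79 and 5.86 in WT alone, the latter over its printed start and with an FDR above 0.05. *Cd1d1*, which presents lipids to NKT cells, had a matched pair of 4.39 and 7.62 and 1 further peak per list, and all 4 had FDRs above 0.05.

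Class II genes left few peaks. *H2-Aa*, *H2-Ab1*, *H2-Eb1*, *H2-DMb1* and *Cd74* had 0 peaks in either list, and *H2-Eb2* had 1 in *Tyrobp*-/- mice, of 6.67 and with an FDR above 0.05. *H2-DMa*, the alpha chain of the class II peptide exchange factor, had 4 rows in each list. Its strong rows at chr17:34118689-34120212 (8.54 in WT, 9.69 in *Tyrobp*-/- mice) and chr17:34119541-34119931 (8.95 and 6.67) lay wholly within *Brd2*, which overlaps *H2-DMa*. In WT, 226 of the 1230 bases of the first and 239 of the 391 bases of the second lay in *H2-DMa*. In *Tyrobp*-/- mice it was 226 of 1290 and 209 of 361. A further pair (chr17:34135194-34135554 in *Tyrobp*-/- mice) was named *H2-DMa* in *Tyrobp*-/- mice, with 5.92, and *Gm20493* in WT, with 6.88. The rows of *H2-DMa* found in 1 list only had fold enrichments of 4.88 and 4.88 in WT, both with FDRs above 0.05, and 2.86 in *Tyrobp*-/- mice. These were the only WT rows named *H2-DMa* that lay outside *Brd2*. *H2-Ke6*, which encodes a hydroxysteroid dehydrogenase and shares only the name, had 2 overlapping rows of 2.58 and 2.65 in WT alone.

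The loading machinery held the highest member value of WT. *Tapbp* had 5 rows in each list, and 3 of them, annotated to its 5′ UTR, shared bases with the neighboring gene *Zbtb22*. The first (chr17:33915929-33919910) had 68.4 in WT and 14.6 in *Tyrobp*-/- mice, a ratio of 0.213, and 330 of its 600 WT bases lay in *Tapbp*, 88 in *Zbtb22* and 476 in the lncRNA gene *Gm19412*, which overlaps *Tapbp*. Another had 17.6 and 13.1 (ratio 0.744), and it ended before *Tapbp* begins, with 2340 of its 2376 WT bases in *Zbtb22*. The last had 16.9 and 15.7 (ratio 0.929), with 802 of its 1001 WT bases in *Tapbp*, 991 in *Gm19412* and 47 in *Zbtb22*. In WT the row of 68.4 shared 119 bases with the row of 17.6 and 476 with the row of 16.9, so its value stood about as far from WT rows that overlapped it as from the *Tyrobp*-/- row. The 3′ UTR peak of *Tapbp*, in no other gene, had 2.88 in WT and 2.14 in *Tyrobp*-/- mice, and 1 row of low enrichment in each list, of 1.63 in WT and 1.69 in *Tyrobp*-/- mice (log10 FDRs -3.25 and -4.26), had no counterpart.

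*Pdia3* had 1 3′ UTR peak per list, of 9.86 in WT and 8.42 in *Tyrobp*-/- mice, with FDRs listed as 0. *Calr* had 1.83 and 1.89, also with FDRs listed as 0, and *Canx* had 1.37 and 1.41, so that these chaperone peaks were called firmly at low enrichment and differed little. A 5′ UTR peak of *Canx*, of 2.58 at a log10 FDR of -20, was found in WT alone. *Tap2* had a 3′ UTR peak (chr17:34215402-34216261) of 9.77 in WT and 5.48 in *Tyrobp*-/- mice, a ratio of 0.561 that stayed within 2-fold, and a *Tyrobp*-/- row of 7.62 with an FDR above 0.05. *Tapbpl* had 0 peaks in either list.

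The *Tap1* peaks sat at different places around the gene's start in the lists. In WT, a peak of 5.86 ended 2 bases before the RefSeq start of *Tap1*, with 77 of its 301 bases in the neighboring *Psmb9* and the rest between the genes, and a peak of 10.7 ran from 326 to 685 bases after it. In *Tyrobp*-/- mice, a peak of 8.58 ran from 92 bases before to 118 bases after the start, over the *Tap1* stretch printed with the consensus, and a peak of 5.24 ran from 177 to 266 bases after it. The first of each list shared 91 bases and had a ratio of 1.46, and the second of each list had no counterpart.

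*Erap1*, the trimming peptidase, had a 5′ UTR pair of 2.63 in WT and 4.08 in *Tyrobp*-/- mice, a ratio of 1.55. Of the immunoproteasome subunits, *Psmb10* had a 3′ UTR peak of 1.65 in WT alone, *Psmb9* one of 1.95 in *Tyrobp*-/- mice alone, and *Psmb8* 0 peaks. *Ciita* had 5 WT and 4 *Tyrobp*-/- rows and gave the highest member value of *Tyrobp*-/- mice. That row (chr16:10502531-10514908) had 20.3, against 13.8 in WT, a ratio of 1.47, and overlapped the lncRNA gene LOC115488669. A second *Ciita* pair that overlapped the same lncRNA gene had 6.84 in WT and 4.45 in *Tyrobp*-/- mice, and the pair outside it had 7.32 and 7.62. The remaining *Ciita* rows had 4.39 and 4.64 in WT and 8.58 in *Tyrobp*-/- mice. The rows of 4.39 and 8.58 had FDRs above 0.05, and the row of 4.64 shared bases with a *Tyrobp*-/- peak named for the neighboring gene *Dexi*. *Nlrc5* had 2 peaks per list between 3.17 and 8.58, of which 0 overlapped between the lists and all 4 had FDRs above 0.05.

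Member peaks found in 1 list only numbered 18 in WT, in 14 genes, with a median fold enrichment of 4.88, and 18 in *Tyrobp*-/- mice, in 13 genes, with a median of 4.26. They made up 39.1% of the WT and 37.5% of the *Tyrobp*-/- member peaks, against 20.5% and 22.6% of all peaks. In each list 8 of the 18 (44.4%) had an FDR above 0.05, out of 9 such member peaks in WT and 11 in *Tyrobp*-/- mice. Over all peaks found in 1 list only, this share was 32.4% in WT and 31.4% in *Tyrobp*-/- mice. These differences were not tested. Over all peaks, 64.4% of those with an FDR above 0.05 were likewise in 1 list only in each genotype, so weak calls stood alone in general and not only among the members. An FDR of 1e-05 or lower was reached by 4 of them in WT, in *Canx*, *H2-D1* and *H2-Ke6*, and by 2 in *Tyrobp*-/- mice, both in *H2-K1*. Weak peaks recurred at fixed values. In *Tyrobp*-/- mice, 722 peaks shared a fold enrichment of 7.62 with a p of 0.023, and 4 of them were member peaks, of *Cd1d1*, *Nlrc5*, *H2-T-ps* and *H2-T10*. In WT, 648 peaks had 7.81 with a p of 0.021, among them 1 of *Nlrc5*.

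The authors' table that sets the genotypes side by side held 8 member rows among 5640. They were in *H2-DMa*, *Tap1* (2 rows), *H2-K1*, *H2-T24* (2 rows), *H2-Bl* and *H2-M5*. Of the pairs past 2-fold in the ratio used here, those of *H2-M5* and *H2-T24* are in genes with a row in that table and those of *Tapbp* and *H2-K2* are not, and a row there was not read as a call.

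Of 33 other genes of the pathway, 27 had a peak in each list and 29 in either. Their 36 matched pairs had a median log2 ratio of 0.08, with 2 pairs at least 2-fold higher and 2 at least 2-fold lower. The higher pairs were in the costimulatory genes *Cd86*, with 2.93 in WT and 20 in *Tyrobp*-/- mice, and *Cd80*, with 6.84 and 20. Both had the same *Tyrobp*-/- value at the same log10 FDR of -4.32, the WT peak of *Cd86* had an FDR above 0.05, and a second *Cd86* pair, of 3.23 and 5.72, stayed within 2-fold. The lower pairs were in *Irf1*, an interferon-response transcription factor, with 17.4 and 5.35, and in *Psme2*, a proteasome activator subunit, with 8.79 and 2.86, where the *Tyrobp*-/- peak had an FDR above 0.05. The regulator genes *Rfx5*, *Rfxap* and *Rfxank*, which act with CIITA, had pairs within 2-fold.

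Marker genes of the tissue's cell types were looked up in the lists, where having a peak, weak calls included, does not measure how many cells of a type were present. In both lists, 9 of 12 microglial markers had one, and *Trem2*, *Itgam* and *Tyrobp* had none. All of the 6 endothelial, 5 astrocyte and 5 oligodendrocyte markers had a peak in both lists, as did 7 of 8 markers of hippocampal neurons. Of 5 markers of border macrophages and blood myeloid cells, 2 had a peak in WT and 4 in *Tyrobp*-/- mice, and of 5 T and B cell markers 1 had a peak in each. The 20 matched pairs of the microglial markers had a median log2 ratio of -0.04, with 0 at least 2-fold higher and 1 lower. Over the other marker lists this median ranged from -0.58 (2 pairs of border macrophage and myeloid markers) to 0.22 (11 oligodendrocyte pairs). The part of cell makeup in the members' values was not tested.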

How the data were processed

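After fastp had trimmed the reads, the authors aligned them by HISAT2 against the mouse genome of Ensembl v96 (GRCm38), and exomePeak called peaks jointly over the 3 IP and 3 input libraries of each genotype, annotated by ChIPseeker. Read counts and the percent of G and C bases per library were deposited. For every peak the authors gave a p-value, the log10 of the FDR and the fold enrichment, a ratio of IP over input. A further table holds the authors' own log2 fold change, p and FDR of *Tyrobp*-/- against WT. These columns were not used, and that table served only to list which members it holds.

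Exonic blocks were intersected with bedtools 2.31.1 (Python 3.11.15, numpy 2.4.6, pandas 2.3.3, scipy 1.17.1, matplotlib 3.10.9), and matching was tested on simulated peaks. The ratio was the *Tyrobp*-/- over the WT fold enrichment. With 1 value per peak and genotype no test, replicate error or p-value was computed. Valid reads ranged from 61189368 to 73554506 per library, and the precision of a single peak is unknown.

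Members and lists were chosen with earlier results of these data known. Named are all members past 2-fold, with peaks in 1 list, with a row in the comparison table, or with the highest WT value of their role, and of the other pathway genes those with the 2 highest and 2 lowest ratios. The remaining members were added so that every member with a peak is accounted for. All 29 member names matched RefSeq symbols or synonyms. Alternatives were a stricter FDR, a fold enrichment of at least 4, 1 peak per gene, other overlaps, other fold thresholds and centred ratios. Protein identity between members was not computed here.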

Additional observations from a re-analysis of the deposited data

How the results depend on the processing

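No paired analysis was possible because each peak carries 1 value over the pooled replicates of a genotype, and for the same reason no replicate could be left out. Of 67 values under alternatives, 35 were counted as similar to the reported ones and 32 as moved. The similar ones include drops at a fold enrichment of at least 4. There, WT member peaks fell from 46 to 32, *Tyrobp*-/- member peaks from 48 to 33 and matched pairs from 26 to 18. With peaks at an FDR of 1e-05 or lower, 23 member peaks in 14 genes were left in WT and 24 in 15 genes in *Tyrobp*-/- mice. They gave 17 pairs (0 higher, 1 lower, median log2 ratio -0.11) and 6 and 5 peaks in 1 list only. In WT, 65.2% of these member peaks lay in 3′ UTRs, against 57.6% of all WT peaks at that FDR. In *Tyrobp*-/- mice the shares were 58.3% and 60.3%. With a fold enrichment of at least 4, 0 pairs were higher and 1 lower, with a median of -0.1. With 1 peak per gene, 25 peaks per list gave 13 pairs, 1 of them higher, with a median of 0.05, and 10 peaks were in the *Tyrobp*-/- list only. The median was 0.04 when spans with introns were overlapped, -0.1 with a reciprocal overlap of 50% (1 pair higher), and -0.05 after centring on all matched peaks. A threshold of 1.5-fold gave 5 higher and 4 lower pairs, and 3-fold gave 1 higher. Leaving out member peaks that overlap another RefSeq gene, a choice made after seeing the data, left 31 peaks in *Tyrobp*-/- mice and 14 pairs, 1 higher and 1 lower, with a median of 0.04. The sign of the median thus depended on these choices, and all medians lay between -0.11 and 0.05. The depth behind a single peak is unknown, and it limits every value here.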
